A study of Mus musculus with 2 samples.

Results

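The Reelin pathway and neuronal migration genes are 10 genes, Reln, Vldlr, Lrp8, Dab1, Cdk5, Cdk5r1, Pafah1b1, Nde1, Ndel1 and Dcx, chosen by symbol and matched by gene identifier among 43346 genes in the deposited tables. They have 68 annotated transcripts there. The tissue was embryonic mouse midbrain at E12.5, from the strain B6NCrl with both sexes mixed and labelled healthy, and 2 RNA-seq libraries of it make up the single group of the series. Replicate 1 came from a pool of 120 embryos and replicate 2 from a pool of 88, and 10 ng of RNA above 200 nt in length went into each library. No genotype or treatment separates the libraries, so each value below is a level in midbrain with its spread between these pools.

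Reelin, the product of Reln, is a large secreted glycoprotein that binds the lipoprotein receptors encoded by Vldlr and Lrp8. Binding clusters the receptors and leads Src family kinases to phosphorylate the adaptor Dab1, which is then degraded. Cdk5 and its activator p35 (Cdk5r1) act beside this pathway, while Lis1 (Pafah1b1) with Nde1 and Ndel1 regulates the dynein motor that pulls the nucleus, and doublecortin (Dcx) binds microtubules in migrating neurons. In the midbrain, Reelin signalling is known for its part in placing dopaminergic neurons.

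Replicate 1 held 29430493 expected counts and replicate 2 held 37381984, of which 4.14% and 3.48% were spike-in RNAs. The midbrain gene Otx2 was at 146.55 and 141.78 TPM, En1 at 5.9 and 8.49 TPM and Pax7 at 3.55 and 4.68 TPM, while the hindbrain gene Hoxa2 was at 0.0 and 0.08 TPM. These genes were chosen for this check after other values had been seen. TPM, the unit of the deposited abundances, is scaled by transcript length, so it can be compared between genes. In whole tissue, fewer cells of a type and less RNA per cell cannot be told apart.

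All 10 genes were above 10 TPM in both libraries, and their levels ranged over about an order of magnitude, with Dcx highest and Vldlr lowest. The median over the 10 genes was 48.37 TPM in replicate 1 and 51.05 TPM in replicate 2, beside a median of 21.2 TPM over 13202 nuclear protein-coding genes at a mean of at least 1 TPM. Both libraries placed Dcx above Nde1, Nde1 above Pafah1b1, Dab1 above Cdk5, Lrp8 above Reln, and Reln above Vldlr. Between Pafah1b1 and Dab1, and between Cdk5 and Lrp8, neighbours in the order overlapped between libraries. This order is of gene totals, which include noncoding and partial transcripts. On transcripts with a complete annotated coding sequence alone, Lrp8 fell to the lowest place in both libraries, at 4.12 and 3.20 TPM. Reln was at 7.49 and 6.39 TPM and Vldlr at 6.97 and 6.41 TPM, and Reln and Vldlr overlapped. That set leaves out Lrp8-202, a protein-coding transcript whose coding sequence is annotated as incomplete. Lrp8-202 held 74.30% and 77.11% of the expected counts of Lrp8.

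**Figure D1:**
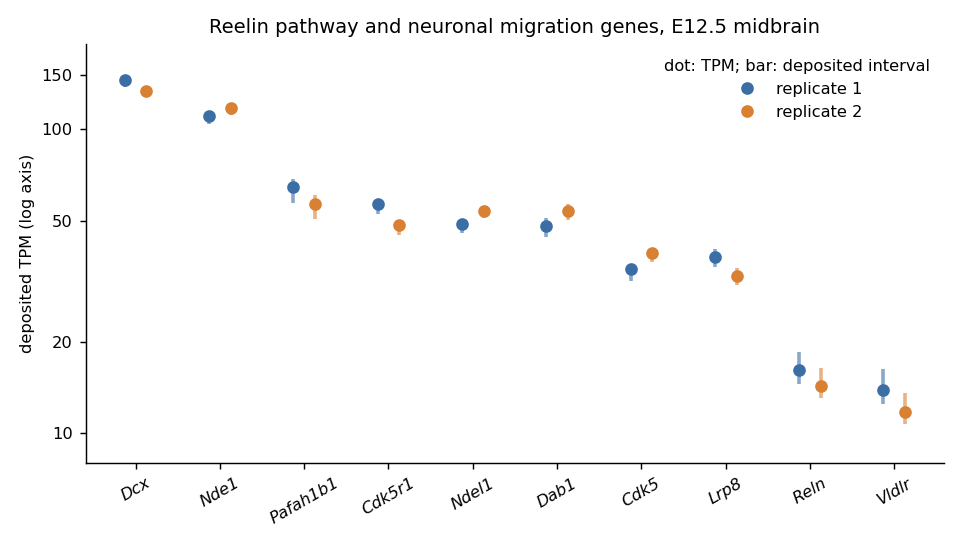
Level of each gene in TPM (log axis), ordered by mean, with 1 dot per library and a bar for the interval deposited with it. Dcx and Nde1 lie above 100 TPM in both libraries, Reln and Vldlr lie below 20 TPM, and the other 6 genes lie between.

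The ligand gene Reln (ENSMUSG00000042453.10, mm10 chr5:21884454-22344702, minus strand) had 16.09 TPM in replicate 1 against 14.35 TPM in replicate 2, a mean of 15.22 ± 1.23 TPM (SD, n = 2). It ranked 7787 among the 13202 protein-coding genes, below their median. Reln spans a long locus that holds antisense genes and processed pseudogenes, each of which was at 0.64 TPM or less in both libraries. Whether reads were counted by strand is not given in the sources used here, so reads of Reln and of overlapping antisense genes cannot be told apart where they overlap.

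The transcript Reln-207, with a coding sequence of 10383 nt, held 45.81% of Reln abundance in replicate 1 and 44.20% in replicate 2. By expected counts it held 85.79% and 85.31%, since 1 copy of an 11699-nt transcript gives far more reads than 1 copy of a short one. The transcript next to it in abundance, Reln-205, is an 891-nt noncoding model at 29.17% and 31.69%, which took only 3.73% and 4.18% of the counts. The complete coding transcripts Reln-207 and Reln-201 together amounted to 7.49 and 6.39 TPM.

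Those coding transcripts differ by a microexon of 6 nt, exon 64 of the 65 in Reln-207 (chr5:21891562-21891567). The microexon keeps the reading frame and is known to be used in neurons. It is shown in capitals, between the last 15 bases of the exon before it and the first 15 of the exon after it.
Reln exon 64: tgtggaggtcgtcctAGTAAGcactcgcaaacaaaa
Transcripts with the microexon were at 7.37 and 6.34 TPM and the transcript without it at 0.12 and 0.05 TPM. Inclusion was therefore 98.4% and 99.2% of coding Reln abundance. Nearly all abundance assigned to coding Reln transcripts was of the form with the microexon. Such shares are those of whole annotated transcripts, so reads elsewhere weigh in, here from a 3′ untranslated region of 1019 nt in Reln-207 and 223 nt in Reln-201.

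Of the receptor genes, Lrp8, which encodes ApoER2, was the more abundant by gene total. On complete coding transcripts alone, which leave out the incompletely annotated Lrp8-202, Vldlr was above Lrp8. Lrp8 (ENSMUSG00000028613.10, chr4:107802261-107876840, plus strand) was at 38.09 and 32.86 TPM, a mean of 35.48 ± 3.7 TPM (SD, n = 2). Vldlr (ENSMUSG00000024924.10, chr19:27216484-27254231, plus strand) was at 13.92 and 11.76 TPM, a mean of 12.84 ± 1.53 TPM. In both libraries the gene total of Lrp8 exceeded that of Vldlr on the TPM scale, by 2.74-fold in replicate 1 and 2.79-fold in replicate 2. The antisense gene Lrp8os2 overlaps Lrp8 and was at 2.36 and 3.58 TPM.

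Lrp8 had 12 annotated transcripts, and 4 of them held at least 5% in either library. The most abundant, Lrp8-202, held 53.62% and 56.09%. Lrp8-209, whose annotation class is nonsense-mediated decay, held 17.57% and 15.50%. The 797-nt noncoding model Lrp8-212 held 14.71% and 14.73%, and the complete coding transcript Lrp8-201 held 10.82% and 9.33%. The other 8 transcripts each held at most 1.94%, and 3 of the 12 were listed at 0 in both libraries. The order of these 4 transcripts was the same in both libraries.

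Alternative splicing of Lrp8 is known to change the number of ligand-binding repeats outside the cell and to add a proline-rich insert in the cytoplasmic tail, which binds JNK-interacting proteins. Each exon tested here keeps the reading frame. The first is an exon of 381 nt (chr4:107846239-107846619), exon 5 of 21 in Lrp8-209, which adds 127 codons in the ligand-binding region. The others are shown in capitals with 15 bases of each neighbouring exon: exon 7 of 123 nt (chr4:107848281-107848403), in the same region, and exon 19 of 177 nt (chr4:107870012-107870188), which encodes the cytoplasmic insert.
Lrp8 exon 7: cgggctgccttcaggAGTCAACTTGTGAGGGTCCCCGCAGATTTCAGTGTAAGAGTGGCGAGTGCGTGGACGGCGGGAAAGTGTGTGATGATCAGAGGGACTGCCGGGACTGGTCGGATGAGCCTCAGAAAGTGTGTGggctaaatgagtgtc
Lrp8 exon 19: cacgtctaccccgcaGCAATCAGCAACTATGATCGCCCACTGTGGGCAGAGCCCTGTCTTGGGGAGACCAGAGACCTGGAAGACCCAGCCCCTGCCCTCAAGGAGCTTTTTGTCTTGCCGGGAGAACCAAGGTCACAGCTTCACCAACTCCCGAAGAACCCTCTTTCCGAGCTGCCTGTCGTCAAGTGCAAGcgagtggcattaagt

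For each exon, inclusion is the TPM of transcripts that hold it, as a share of the TPM of all annotated transcripts that span it. The 381-nt exon was included in 29.2% of Lrp8 abundance in replicate 1 and 26.0% in replicate 2. The 123-nt exon was included in 33.2% and 31.4%. The cytoplasmic exon of 177 nt was included in 34.4% and 30.5%. All 3 exons were thus in the minority of spanning Lrp8 abundance by TPM in both libraries. The leading transcript Lrp8-202, whose coding sequence is annotated as incomplete, lacks each of them. It has 6627 nt, of which 2095 nt are annotated as coding, so reads far from these exons weigh in its share. Among complete coding transcripts alone, at 4.12 and 3.20 TPM in all, the exons of 381 and 177 nt were in all of the abundance in replicate 1 and in 95.9% in replicate 2, and the 123-nt exon was in none. A further exon of 225 nt, exon 16 of Lrp8-209, which encodes the O-glycosylated stretch next to the membrane, was included in all spanning abundance in replicate 1 and in 99.5% in replicate 2.

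Lrp8 also had a splice acceptor that adds 3 bases to the start of the exon that is exon 5 of Lrp8-203 (chr4:107847441-107847443). The added bases are in capitals, since this single codon is the smallest annotated difference between the receptor's forms.
Lrp8 exon 5 of Lrp8-203: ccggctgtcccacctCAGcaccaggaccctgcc
Transcripts with these bases held 15.1% and 15.3% of the abundance, all of it from the short model Lrp8-212, as Lrp8-203 was listed at 0 in both libraries. Only 10.8% and 9.74% of Lrp8 abundance lay in transcripts with a complete annotated coding sequence, the smallest share among the 10 genes.

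In Vldlr, 6 of 8 transcripts held at least 5%, and none held the majority. The top transcript by abundance was Vldlr-201 at 30.67% and 28.72%, which is classed as nonsense-mediated decay: it skips the first 65 nt of the exon that is exon 11 of Vldlr-207, and its annotated coding sequence ends 10 bases into the shortened exon. The acceptor that keeps these 65 nt was used in 69.3% and 71.3% of Vldlr abundance. By counts the leading transcript was instead Vldlr-207, the 7971-nt form with 45.01% and 47.38%. The top transcript of Vldlr thus differed between the scales, and agreed between libraries on each.

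An exon of 84 nt in Vldlr, exon 16 of the 19 in Vldlr-207 (chr19:27246593-27246676), encodes the O-glycosylated stretch near the membrane, whose absence is known to define the short form of the receptor. It is shown in capitals because it separates those forms.
Vldlr exon 16: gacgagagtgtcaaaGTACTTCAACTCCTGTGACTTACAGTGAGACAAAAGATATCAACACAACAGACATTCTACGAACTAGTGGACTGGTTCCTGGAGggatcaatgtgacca
It was included in 28.8% and 30.8% of spanning Vldlr abundance, and among complete coding transcripts only, in 46.5% and 47.1%. Exon 4 of 123 nt (chr19:27236240-27236362), which encodes a ligand-binding repeat, was included in 70.6% and 69.6%. By spanning TPM, Vldlr transcripts without the glycosylated stretch were the more abundant in both libraries. The largest of them was Vldlr-201, of the nonsense-mediated decay class, at 4.27 and 3.38 TPM. Among complete coding transcripts the split was near even. Vldlr-202, a complete coding transcript without the stretch, had a deposited interval of 0.18 to 3.82 TPM in replicate 1. By counts the leading transcript was Vldlr-207, which holds the exon. Lrp8 carried its corresponding exon in nearly all spanning abundance.

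The adaptor gene Dab1 (ENSMUSG00000028519.12, chr4:103619359-104744844, plus strand) was at 48.15 and 53.90 TPM, a mean of 51.02 ± 4.07 TPM (SD, n = 2). Its level exceeded that of Lrp8 and of Vldlr in both libraries. Of its 8 transcripts, 6 held at least 5% in either library. Dab1-203, with the coding sequence of 1665 nt, led at 36.80% and 36.77%. Dab1-207, classed as nonsense-mediated decay, followed at 27.44% and 26.18%, and the 974-nt partial model Dab1-206 held 15.16% and 17.71%. Dab1-202 held 6.64% and 7.29%, Dab1-201 held 6.55% and 5.69%, and Dab1-208 held 6.66% and 4.11%. The other 2 transcripts held at most 1.27%.

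By expected counts, Dab1-203 took 66.49% and 66.80% of the gene and Dab1-207 took 22.62% and 21.70%. The short models Dab1-206, Dab1-202, Dab1-201 and Dab1-208 therefore rest on few reads, from 113.18 and 187.11 expected counts for Dab1-206 down to 30.81 and 26.90 for Dab1-208. Dab1-203 was the leading transcript on both scales and in both libraries.

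The alternative exons of Dab1 lie in and after the stretch whose tyrosines are phosphorylated when Reelin binds, and the skipping of such exons is a known developmental feature of this gene. Exons 7 (chr4:104680070-104680108) and 8 (chr4:104681598-104681663) of Dab1-203 have 39 and 66 nt. Exon 6 of Dab1-208 (chr4:104713622-104713672) has 51 nt and is the least used. All of them keep the frame and are shown in capitals.
Dab1 exon 7 of Dab1-203: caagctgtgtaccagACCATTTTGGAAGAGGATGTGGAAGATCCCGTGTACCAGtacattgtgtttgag
Dab1 exon 8 of Dab1-203: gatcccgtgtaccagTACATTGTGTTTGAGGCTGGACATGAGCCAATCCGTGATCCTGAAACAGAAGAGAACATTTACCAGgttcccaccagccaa
Dab1 exon 6 of Dab1-208: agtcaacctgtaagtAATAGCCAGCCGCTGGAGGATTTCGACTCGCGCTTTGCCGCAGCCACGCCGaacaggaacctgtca

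The 39-nt exon was included in 56.0% and 59.3% of spanning Dab1 abundance, at 20.92 and 23.75 TPM with it and 16.42 and 16.33 TPM without it. The 66-nt exon was included in 90.6% and 93.9%. The 51-nt exon was included in 9.4% and 6.14%, all of it through the 641-nt model Dab1-208. Exon 8 was thus included in most of the spanning abundance, while exon 7 was divided more evenly between inclusion and skipping. All of the skipping of exon 7 was in Dab1-207, of the nonsense-mediated decay class, and the partial model Dab1-208, and the complete coding transcript that spans it, Dab1-203, includes it.

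A further Dab1 exon of 270 nt (chr4:104704204-104704473), exon 9 of 15 in Dab1-207, was included in 38.7% and 39.0%. It sets Dab1-207 apart from Dab1-203, and the annotated coding sequence of Dab1-207 ends after 90 bases of it. Molecules with this exon were at 13.21 and 14.11 TPM, beside 20.93 and 22.04 TPM for those that skip it. The libraries differed by less than 1 percentage point for this exon. Transcripts with a complete annotated coding sequence made up 43.4% and 42.5% of Dab1 abundance, or 68.5% and 68.6% of its counts.

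**Figure D2:**
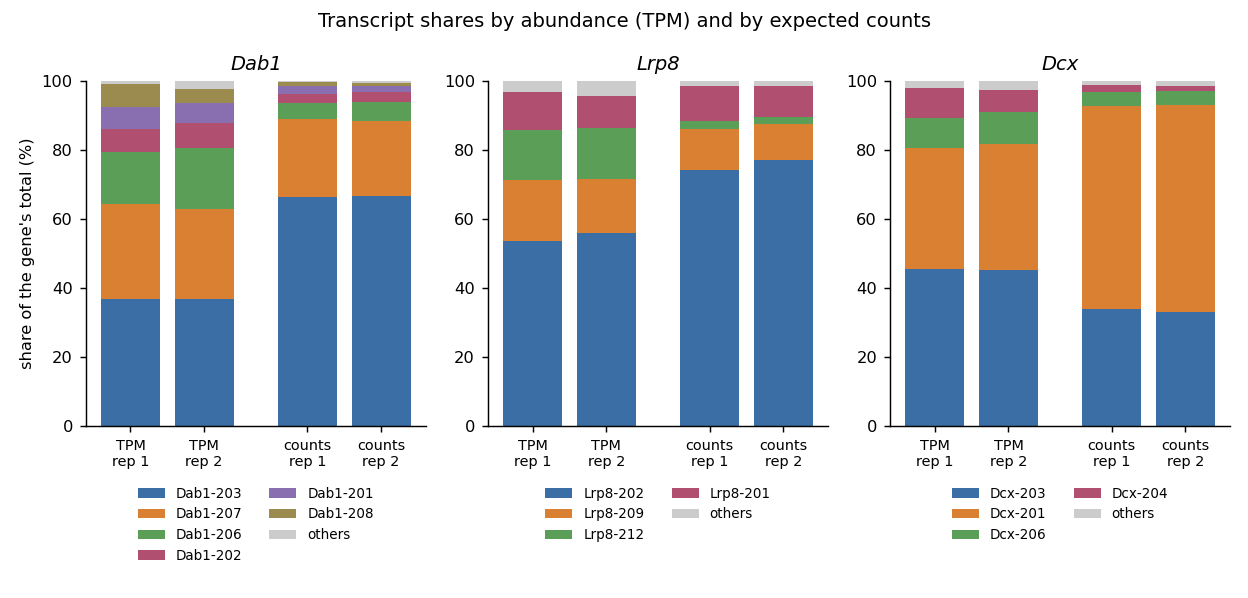
Share of each gene's total held by transcripts of Dab1, Lrp8 and Dcx with at least 5% of abundance in either library, by TPM and by expected counts, with the remaining transcripts in grey. Within each scale the libraries resemble each other, while the scales differ: Dab1-203 goes from 36.78% of TPM to 66.64% of counts, and in Dcx the leading transcript changes from Dcx-203 to Dcx-201.

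**Figure D3:**
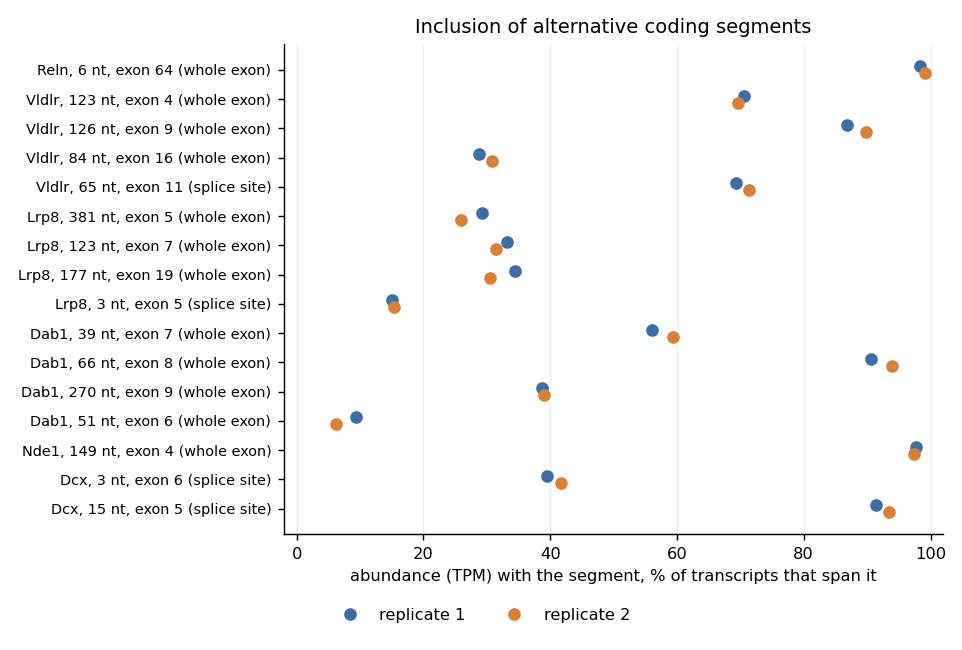
Inclusion of each alternative coding segment, as the percentage of spanning abundance that holds it, with 1 dot per library, for segments whose forms are both at a mean of at least 1 TPM and for the Reln microexon. The Reln microexon lies at 98.4% and 99.2%, the 3 Lrp8 exons lie between 26.0% and 34.4%, and Dab1 exons run from 6.14% to 93.9%.

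The kinase gene Cdk5 (ENSMUSG00000028969.6, chr5:24418241-24423530, minus strand) was at 34.60 and 39.19 TPM, a mean of 36.89 ± 3.25 TPM (SD, n = 2), all in its single annotated transcript. Its activator Cdk5r1 (ENSMUSG00000048895.13, chr11:80477023-80481184, plus strand) was at 56.79 and 48.21 TPM, a mean of 52.5 ± 6.07 TPM. The activator exceeded the kinase in both libraries, by 1.64-fold in replicate 1 and 1.23-fold in replicate 2 on the TPM scale. Cdk5r2, which encodes the related activator p39, was at 7.0 and 4.63 TPM, so Cdk5r1 was 8.11-fold and 10.4-fold higher. Cdk5r1-201 held 91.83% and 88.98% of Cdk5r1 abundance. Of the activator genes, Cdk5r1 was the predominant one in this tissue.

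Among the dynein regulators, Nde1 was the most abundant. Nde1 (ENSMUSG00000022678.12, chr16:14163275-14192928, plus strand) is known for its work in dividing progenitors, and was at 110.45 and 117.00 TPM, a mean of 113.7 ± 4.63 TPM (SD, n = 2). Its paralog Ndel1 (ENSMUSG00000018736.10, chr11:68821434-68871858, minus strand), better known from postmitotic neurons, was at 48.59 and 53.92 TPM, a mean of 51.26 ± 3.77 TPM. Nde1 exceeded Ndel1 by 2.27-fold and 2.17-fold on the TPM scale, a ratio that hardly moved between libraries. Marf1 overlaps Nde1 on the opposite strand and was at 9.40 and 8.92 TPM.

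The paralogs share their layout. Nde1-201 and Ndel1-201 have 9 exons each, and 4 of the 7 internal exons have identical lengths of 154, 149, 137 and 92 nt. Their coding sequences have 1032 and 1035 nt. Nde1-201 held 76.86% and 78.78% of Nde1 abundance and Ndel1-201 held 86.71% and 81.43% of Ndel1 abundance. Each paralog also has coding transcripts with a shorter coding sequence, and of these Nde1-202, with 951 nt, held 11.25% and 10.04%, and Ndel1-203, with 945 nt, held 9.88% and 15.33%. The longer coding form was the main one for both genes.

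Pafah1b1 (ENSMUSG00000020745.11, chr11:74673949-74724670, minus strand) was at 64.58 and 56.72 TPM, a mean of 60.65 ± 5.56 TPM (SD, n = 2). It is the only one of the 10 genes whose top transcript by abundance differed between libraries. In replicate 1 the 525-nt partial model Pafah1b1-204 led with 48.50%, ahead of the complete coding transcript Pafah1b1-201 with 37.74%. In replicate 2 Pafah1b1-201 led with 43.65%, ahead of Pafah1b1-204 with 41.47%. By counts Pafah1b1-201 led in both libraries, with 65.45% and 67.84%, while Pafah1b1-204 rested on 236.39 and 224.51 expected counts.

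For Pafah1b1 the complete coding transcripts alone came to 29.66 and 29.70 TPM, nearly the same in both libraries, whereas the gene total was 64.58 and 56.72 TPM. Most of the difference in the gene total was in the short model, at 31.32 and 23.53 TPM. On the coding transcripts alone Pafah1b1 was below Ndel1, whose complete coding transcripts were at 47.55 and 52.71 TPM, while by gene totals it was above it. The order of these genes thus depends on whether the short model is counted.

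**Figure D4:**
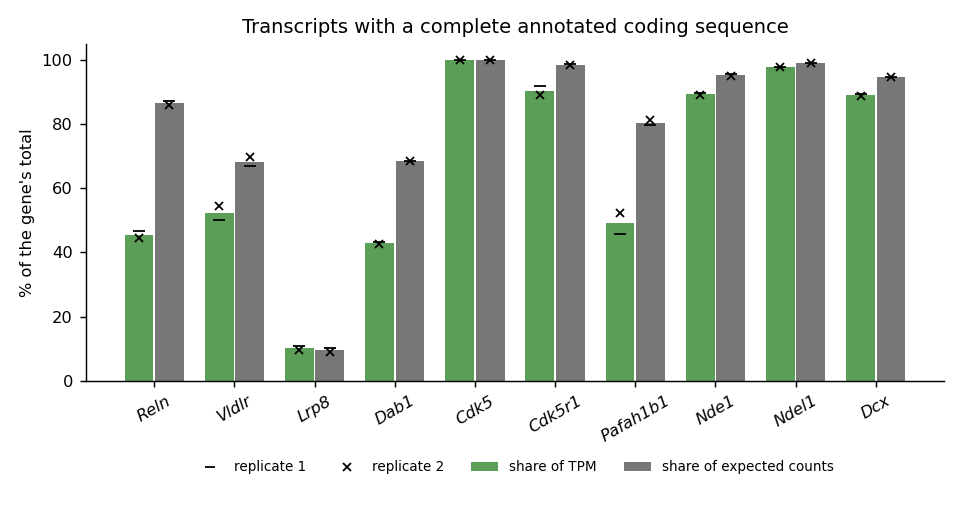
Percentage of each gene's abundance (green) and of its expected counts (grey) in transcripts with a complete annotated coding sequence; bars are means of both libraries and the marks are the libraries. Cdk5, Cdk5r1, Nde1, Ndel1 and Dcx lie above 88% on both scales, Lrp8 near 10%, and Reln, Dab1 and Pafah1b1 are far lower by abundance than by counts.

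Dcx (ENSMUSG00000031285.10, chrX:143855842-143933311, minus strand) was the most abundant of the genes, at 144.71 and 133.63 TPM, a mean of 139.2 ± 7.83 TPM (SD, n = 2). It ranked 1098 among the 13202 protein-coding genes. Its relative Dclk1 was lower, with Dcx 1.94-fold and 1.78-fold above it, and Dcx stood at 0.156 and 0.147 of the TPM of Tubb3, a neuronal tubulin.

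Of 6 Dcx transcripts, 4 held at least 5%. Dcx-203 led with 45.62% and 45.26%, followed by Dcx-201 with 35.11% and 36.60%. The retained-intron transcript Dcx-206 held 8.67% and 9.22%, and Dcx-204 held 8.47% and 6.45%. The other 2 held at most 2.13%. By counts the order of the leading transcripts turned, with 33.99% and 33% for Dcx-203 and 58.76% and 59.93% for Dcx-201. These transcripts encode nearly the same coding sequence, 1095 and 1098 nt, and differ mainly in the annotated 3′ untranslated region, of 2840 nt in Dcx-203 and 7709 nt in Dcx-201.

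The coding differences in Dcx come from alternative splice donors at neighbouring exons. Exon 6 of Dcx-201 ends with 3 further bases (chrX:143870607-143870609), and exon 5 ends with 15 further bases that Dcx-204 lacks (chrX:143875755-143875769). The added bases are in capitals.
Dcx exon 6: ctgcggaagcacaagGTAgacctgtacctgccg
Dcx exon 5: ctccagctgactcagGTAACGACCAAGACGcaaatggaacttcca
The 3 bases were included in 39.5% and 41.7% of Dcx abundance and the 15 bases in 91.4% and 93.4%. Both longer donors keep the frame, and in both printed stretches the added bases begin with GTA. Most spanning Dcx abundance by TPM was of forms with the longer exon 5, and most was of forms with the shorter exon 6. These too are shares of whole annotated transcripts. The share for exon 6 thus also depends on how reads divide between the 3′ untranslated regions of Dcx-201 (7709 nt) and Dcx-203 (2840 nt). By counts Dcx-201, which holds the 3 bases, had 58.76% and 59.93%.

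None of the 10 genes was called different between the libraries, where a call needs a mean level of 1 TPM or more, a 1.5-fold difference or more, and an adjusted p under 0.05 in a two-sided exact binomial test. The same rule called 3.55% of 15199 genes, 325 higher and 214 lower in replicate 2. By edgeR's exact test, 0 of 10 had an adjusted p under 0.05 and 0 had an unadjusted p under it. Its dispersion came from these same libraries taken as replicates, so the differences tested are part of the spread it allows. With that test in place of the binomial one, the rule called 201 of the 15199 genes. The unadjusted exact binomial p was under 0.05 for 8 of 10. The shares of all genes under an unadjusted p were not counted. The binomial test compares these libraries and covers counting error only.

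The members had from 1003 to 16409 counts per library. At any ratio, 7 of 10 passed the adjusted exact binomial test, 2 higher and 5 lower in replicate 2. This is to be read against 26.4% of all 15199 genes and 35.1% of the 7181 genes with a mean count of at least 1000, a level that all 10 reach. The deposited TPM intervals were apart for 5 of 10, beside 16.1% of all genes and 23.3% at that count. Over the members the median log2 ratio was -0.09, beside -0.001 over all genes.

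The ligand and both receptors were lower in replicate 2 by similar amounts, and Cdk5r1 was lower by the most. The ratio of replicate 2 to replicate 1, on TMM-scaled counts, was 0.847 for Reln (95% exact interval 0.794 to 0.904), 0.868 for Vldlr (0.797 to 0.946) and 0.851 for Lrp8 (0.811 to 0.893). For Cdk5r1 it was 0.809 (0.774 to 0.846), with an adjusted p of 9.33e-19 by the exact binomial test, and edgeR's exact test gave an adjusted p of 1.0. For Dcx it was 0.924 (0.903 to 0.945). Scaling to spike-ins moves the median of all genes by 0.28 on the log2 scale and turns Reln, Vldlr, Lrp8, Dcx and Pafah1b1 to higher in replicate 2.

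Dab1 and Cdk5 were the genes higher in replicate 2 by the adjusted binomial test, at ratios of 1.09 (1.03 to 1.15) and 1.11 (1.03 to 1.19). Pafah1b1 at 0.959, Nde1 at 1.04 and Ndel1 at 1.07 did not pass it, with adjusted p of 0.177, 0.197 and 0.117 by the exact binomial test. All genes with a mean count of at least 1000 had an SD of 0.141 for their log2 ratio. Beside that spread, Reln, Vldlr, Lrp8, Cdk5 and Cdk5r1 lay beyond 1 SD and the other 5 within it. The share of all those genes beyond 1 SD was not counted, so this does not show the members to be unusual.

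**Figure D5:**
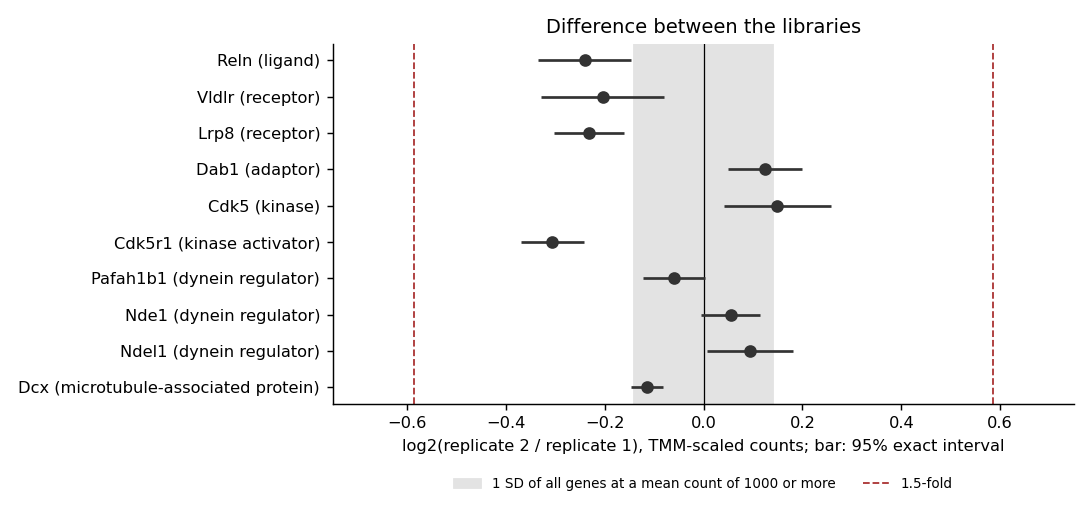
Log2 ratio of replicate 2 over replicate 1 for each gene, from TMM-scaled counts, with 95% exact binomial intervals; the grey band is 1 SD (0.141) of all genes with a mean count of at least 1000 and dashed lines mark 1.5-fold. Every gene lies inside the 1.5-fold lines; Reln, Vldlr, Lrp8 and Cdk5r1 lie left of the band, and under spike-in scaling the values of Reln, Vldlr, Lrp8, Dcx and Pafah1b1 turn positive.

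Marker lists were measured beside these ratios. The 10 markers of Reln-producing Cajal-Retzius cells summed to 213.2 and 194.9 TPM. Of 9 tested, 2 were called lower in replicate 2 (Barhl2 and Tbr1), where 214 of all 15199 genes were. The median log2 ratio of those 9 was -0.12. The highest of the 10 were Nhlh2 at 82.17 and 81.49 TPM, Lhx1 at 44.44 and 41.74 TPM and Lhx5 at 42.93 and 38.31 TPM. Whether these genes mark such cells in midbrain was not tested. Trp73, a defining marker of cortical Cajal-Retzius cells, was at 0.67 and 0.39 TPM, while Reln was at 16.09 and 14.35 TPM. Young neuron markers summed to 2391 and 2337 TPM, led by Tubb3, and progenitor markers to 3098 and 3125 TPM, led by Vim. Mesenchyme and meninges markers summed to 1097 and 1553 TPM, led by Col3a1, red blood cell markers to 14940 and 17520 TPM, led by Hbb-y, endothelial markers to 162 and 190 TPM, led by Egfl7, and microglia and macrophage markers to 107.8 and 133.8 TPM, led by C1qb. None of the markers in those 6 other lists was called, which takes a 1.5-fold difference. Their median log2 ratios were 0.441 for mesenchyme and meninges, 0.261 for microglia and macrophages, 0.224 for endothelium and 0.193 for red blood cells. Progenitor markers had a median of 0.0135 and young neuron markers one of -0.0744. The part of these shifts in the members' ratios was not tested.

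Shares of transcripts were compared between the libraries without a test. None of the 67 transcripts of the 9 genes with several transcripts differed by 10 percentage points or more between libraries, where 3.39% of 45440 transcripts of genes at a mean of at least 10 TPM did. The difference was at least 5 points for 4 of them, which belong to Pafah1b1 and Ndel1, beside 12.5% of the 45440 transcripts. For Dab1, Lrp8 and Dcx the difference reached at most 2.55, 2.47 and 2.02 points.

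The other genes of the pathway were taken from 5 lists with 103 genes, of which 101 were tested and 3 called. The same rule called 3.55% of all 15199 genes, and the counts of called genes in each list are to be read against that. The median log2 ratio of the 101 genes was 0.001, beside -0.001 over all genes. Among 17 genes that handle Reelin or its receptors' ligands, the highest were Apoe at 163.57 and 212.58 TPM, Lrpap1, a receptor chaperone, at 86.52 and 99.65 TPM, Efnb3 at 63.00 and 69.83 TPM and Mesd, a chaperone of the receptor family, at 63.70 and 68.60 TPM. Spon1, which encodes the secreted F-spondin, was called, at 25.85 and 48.21 TPM, a ratio of 1.84. Pcsk6, a protease, was under 1 TPM in both libraries. Apoe, also a ligand of these receptors, thus exceeded Reln on the TPM scale in both libraries.

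In cytoplasmic signalling, 0 of 27 genes were called. The highest were Cfl1, the actin-severing cofilin, at 2106.84 and 2151.02 TPM, Rnf7, a subunit of the ligase that degrades Dab1, at 191.53 and 200.21 TPM, Cdh2, the adhesion protein N-cadherin, at 187.56 and 179.08 TPM, and Rap1b, a small GTPase, at 140.16 and 146.30 TPM. Of 13 Cdk5 partners and substrates, 0 were called higher and 1 lower, namely Cdk5r2, with a ratio of 0.647. Ccni at 154.78 and 136.51 TPM, Cdk5rap3 at 85.43 and 94.63 TPM, Capn2 at 83.86 and 91.34 TPM and Wasf1 at 68.43 and 61.75 TPM led that list. Cdk5r1 and Cdk5r2, the activators of Cdk5, were both lower in replicate 2, and only Cdk5r2 was past 1.5-fold. Whether they differed from each other was not tested.

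Of 30 genes of dynein, dynactin and nuclear movement, 0 were called, with the light chain gene Dynll1 at 1148.48 and 1077.56 TPM, Ywhae at 1105.01 and 1091.69 TPM, Dynlrb1 at 355.53 and 379.65 TPM and Pafah1b3, a catalytic partner of Lis1, at 331.57 and 330.78 TPM. Pafah1b1 thus stood below Pafah1b3 in both libraries. Among genes of the Dcx family and neuronal microtubules, Tuba1a at 8371.46 and 8808.72 TPM, Stmn1 at 4071.09 and 4059.97 TPM, Tubb3 at 929.56 and 906.19 TPM and Tubb2a at 479.56 and 539.56 TPM were the highest, and Dclk3 was under 1 TPM in both libraries.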

How the data were processed

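RNA-seq of 2 libraries was analysed as 1 group. Per the file headers, the authors deposited expected counts (estimated, not always whole) for genes and transcripts, TPM values that they had scaled to effective length and library, and the signal bounds of TPM intervals. The isoform percent that they deposited is a transcript's share of its gene's TPM. The deposited tables' other column, effective length, is in bases, per the file headers. Annotation was GENCODE M4 on mm10, per the deposited notes. The aligner is not given in the sources used here. GENCODE M21, also on mm10, gave names, coordinates and sequences, and 67 of 68 transcripts had the same length there. Tests left out spike-ins and 26248 numbered features.

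Counts were rounded and tested, at 10 or more summed, by a two-sided exact binomial test on TMM-scaled libraries (edgeR 4.0.16, R 4.3.3) with Benjamini-Hochberg adjustment over all genes. Ratios had 0.5 counts added. A deposited TPM interval need not contain its TPM. The test was checked on counts simulated with counting error only, so that check does not cover variation between pools. Alternatives were other scalings (DESeq2 1.42.0 size factors, totals, spike-ins), thresholds, posterior means, edgeR's exact test and leaving out each library.

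The genes and lists were chosen with earlier results of these data known. All 10 members were named. In each pathway list the 4 highest genes, the called genes and those under 1 TPM in both libraries were named. The highest of each marker list, transcripts of Dab1, Lrp8 and Dcx at 5% or more, and the top transcript elsewhere were also named. Other transcripts, the ratios between genes and the splice segments that are named, and the sums over complete coding transcripts, were chosen after their values were seen. A called gene of the pathway lists is not reported here.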

Additional observations from a re-analysis of the deposited data

How the results depend on the processing

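Calls among the 10 genes stayed at 0 under each scaling, filter, threshold, count estimate and test run; by deposited intervals apart, chosen after seeing the data, 5 of 10 differed. The 539 calls over all genes became 1328 with spike-in scaling, 201 with edgeR's exact test, 1283 at the looser fold threshold tried and 213 at 2-fold. Spike-in scaling turned the log2 ratios of Reln, Vldlr, Lrp8, Dcx and Pafah1b1 to 0.036, 0.072, 0.043, 0.16 and 0.22, left Cdk5r1 at -0.030, no longer under the adjusted p threshold, and took Nde1 and Ndel1 under it at 0.33 and 0.37; the cause was not tested. The median of the members' mean levels, 51.14 TPM, was 64.63 TPM when rescaled over nuclear protein-coding genes, and 48.37 to 51.05 TPM with 1 library left out. The share of Dab1-203 was 36.22% by posterior means and 66.64% by counts, that of Lrp8-202 75.70% by counts, and that of Dcx-203 44.91% and 33.50%, since counts are not divided by length. Leaving out 1 library gave 36.77% to 36.80%, 53.62% to 56.09% and 45.26% to 45.62%. The 1539 transcripts past 10 points were 5689 past 5 points and 181 past 20 points. Complete coding transcripts alone, chosen after seeing the data, moved 7 of 10 levels by more than their SD, the most for Lrp8, from 35.48 to 3.66 TPM. Shares of short models rest on few reads. No paired analysis was possible because the series has 1 group.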
